A study of Mus musculus with 3 samples.

Results

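Cells that carry transcripts of keratin 79 (Krt79) or beta-defensin 6 (Defb6), genes linked to the mouth of the hair follicle and to the duct of the sebaceous gland, were taken from single-cell libraries of mouse ear epidermis. Members were chosen by measured counts: a cell was a member when its Krt79 and Defb6 UMIs (unique molecular identifiers, each standing for 1 captured transcript) summed to 5 or more. Of 5340 cells with at least 500 genes and a mitochondrial UMI share of 10% or less, 131 were members, against 109 bulge-type cells and 5100 other cells. Bulge-type cells had 2 or more of the stem cell genes Sox9, Fst, Lgr5, Cd34 and Wif1 and fewer than 5 UMIs of Krt79 and Defb6. The 3 libraries are EC replicates 1 to 3 of 1 group: untreated C57BL/6N mice, 9 weeks old, with no genetic change named and sex not given. Whether each replicate is its own animal is not stated. P-values may thus reflect no more than library-to-library spread. All 3 libraries share dispase and trypsin treatment, release of cells from the basal side of the lifted epidermis, and freezing before capture.

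Hair follicles open to the skin surface through a funnel, the infundibulum, whose lining passes below into the junctional zone, the sebaceous gland with its duct, and the bulge, where hair follicle stem cells reside. Krt79 marks differentiated cells that line the infundibulum and the duct. Sebaceous gland cells (sebocytes) build wax esters, cholesterol esters and triglycerides and release them by bursting, a process called holocrine secretion. Cst6 encodes a cystatin that inhibits proteases of the cornifying epidermis, Gata6 a transcription factor of the duct and junctional zone, and Scd1 the desaturase that makes monounsaturated fatty acids for sebum.

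Replicate 1 held 19 members of 944 kept cells (2.01%, exact 95% interval 1.22 to 3.13%). Replicate 2 held 28 of 2212 (1.27%, 0.843 to 1.82%) and replicate 3 held 84 of 2184 (3.85%, 3.08 to 4.74%). The mean share was 2.37% ± 1.33 (SD, n = 3), and the intervals of replicates 2 and 3 did not overlap. Intervals cover counting error only. Replicate 3 thus supplied most of the members, and no more than 2 of the 131 were marked as doublets. Kept cells summed to 15527509, 24071995 and 27501411 UMIs in replicates 1, 2 and 3. Members had median depths of 23937, 16393.5 and 18325 UMIs, bulge-type cells 6309, 3553.5 and 4590.5, and other cells 14760.5, 9317 and 11279. Members were therefore the deepest of the classes in every library. Libraries shared 11 cell barcodes, 2 of them barcodes of members, and no barcode was a member in more than 1 library.

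The rule genes lie on different chromosomes: Krt79 at chr15:101929332-101940324 on the minus strand and Defb6 at chr8:19225478-19228209 on the plus strand (mm10, GENCODE M21). Elovl6, which turned out to decide the lipid rule used further on, lies on chromosome 3. The 250 bases before the RefSeq start of each (GRCm38.p6) are shown because these genes chose the cells, read 5′ to 3′ along the gene. The windows are chr15:101940325-101940574 (minus strand), chr8:19225228-19225477 (plus strand) and chr3:129532136-129532385 (plus strand). Capitals mark matches on either strand to the letters AGATAA, bound by the GATA family, or to the nuclear receptor half-site, spelled AGGTCA.
Krt79: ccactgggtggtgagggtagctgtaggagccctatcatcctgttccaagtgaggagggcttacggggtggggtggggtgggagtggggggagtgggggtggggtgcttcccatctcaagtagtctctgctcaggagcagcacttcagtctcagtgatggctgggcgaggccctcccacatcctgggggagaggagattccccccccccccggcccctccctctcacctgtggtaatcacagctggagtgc
Defb6: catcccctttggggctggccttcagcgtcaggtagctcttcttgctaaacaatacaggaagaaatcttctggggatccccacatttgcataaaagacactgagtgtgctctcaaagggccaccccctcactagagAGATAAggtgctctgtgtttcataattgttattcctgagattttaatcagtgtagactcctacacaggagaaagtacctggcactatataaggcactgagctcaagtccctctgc
Elovl6: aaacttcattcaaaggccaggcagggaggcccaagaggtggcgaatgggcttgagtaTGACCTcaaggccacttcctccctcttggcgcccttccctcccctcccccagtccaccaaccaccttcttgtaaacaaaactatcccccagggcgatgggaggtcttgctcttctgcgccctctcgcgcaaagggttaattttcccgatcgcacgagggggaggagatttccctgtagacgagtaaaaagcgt
The Defb6 window held AGATAA 115 to 110 bases before the start, and 9.99% of 32851 windows held that motif. The Elovl6 window held AGGTCA on its minus strand, 193 to 188 bases before the start, as did 14.0% of windows on either strand, and the Krt79 window held neither. A match describes letters in a window and is not a binding site. Of 9 rule and marker genes, 4 had a window in the RefSeq table (Krt79, Defb6, Soat1 and Elovl6).

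The members did not form 1 kind of cell, and most of them went against an upper follicle or duct label. In 77 of the 131 members (12, 13 and 52 in replicates 1, 2 and 3) no Krt79 UMI was found, and Defb6 alone brought them in. These made up 57.2% ± 9.32 (SD, n = 3) of the members of a library. Krt79 was detected in 54 members (7, 15 and 32), or 0.962% ± 0.437 of kept cells. Of these, 13 (0, 4 and 9) had 3 or more UMIs of the sebum-lipid genes Fa2h, Soat1 and Cidea, and 41 (7, 11 and 23) did not. All 13 had no Defb6 UMI, whereas 38 of the 54 had both rule genes. The subsets were cut from the rule genes after their values had been seen, so their levels are given as descriptions without a test.

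**Figure D1:**
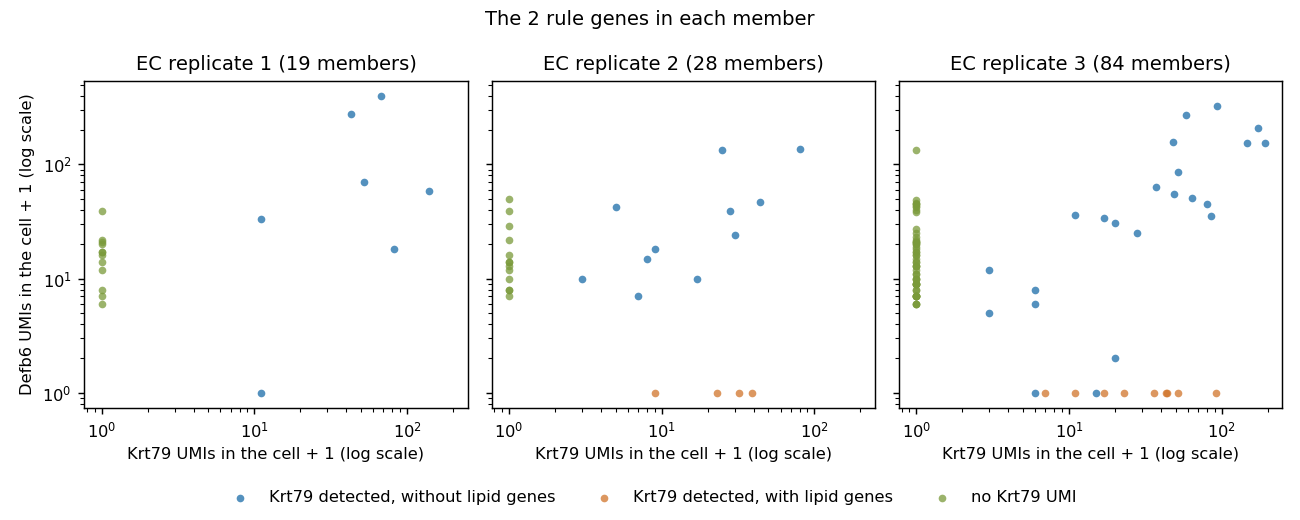
Krt79 UMIs plus 1 (horizontal, log scale) against Defb6 UMIs plus 1 (vertical, log scale) in each member, 1 panel per library with 19, 28 and 84 members, coloured by subset. Members with no Krt79 UMI stand in a column at the left edge, those with lipid genes lie along the bottom edge at 0 Defb6 UMIs, and most of the remaining members carry both genes.

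The 41 members with Krt79 and without lipid genes had high levels of the upper follicle markers Cst6 and Gata6. They had 2 to 191 Krt79 UMIs a cell (median 27) and 0 to 397 Defb6 UMIs (median 35). Levels of other genes are in CPM, a gene's UMIs per 1000000 UMIs of all cells of a class in a library. Cst6 had 14037, 28498 and 21714 CPM in replicates 1, 2 and 3, against 665, 739 and 688 CPM in other cells. Gata6 had 190, 131 and 96.5 CPM, against 19.1, 39.3 and 21.2 CPM in bulge-type cells and at most 0.311 CPM in other cells. Every library therefore put both markers in these members above both other classes. A Gata6 UMI was found in 24 of the 41 cells, against 11 of 5100 other cells, although the 41 were shallower, with medians of 9473, 4652 and 7977 UMIs.

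Genes of the isthmus and junctional zone did not go 1 way in the same 41 cells. Plet1, a surface protein of the junctional zone, had 207, 327 and 300 CPM, against 47.8, 24.6 and 50.8 CPM in bulge-type cells. The lowest Plet1 value in the 41 cells lay above the highest in bulge-type cells. Lgr6, a receptor of isthmus stem cells, had 41.3, 16.3 and 5.08 CPM, below the 66.9, 49.1 and 76.2 CPM of bulge-type cells in every library. It was found in 4 of the 41 cells, against 28 of 109 bulge-type cells. Lrig1, a growth control protein of the same region, had 116, 98.0 and 55.8 CPM, against 100.4, 73.7 and 33.9 CPM in bulge-type cells. It was found in 17 of the 41 cells, and the ranges of the 2 classes overlapped. Krt17, a keratin of the follicle sheath, had 5530, 507 and 5661 CPM, so replicate 2 stood far below the other two. Krt14, Krt16 and Krt17 are close relatives in sequence, and reads shared between them may have been assigned unevenly. Krt15, the keratin of bulge and basal cells, had 2191, 1618 and 838 CPM, against 2447, 3266 and 2425 CPM in bulge-type cells. Sox9 UMIs gave 380, 327 and 274 CPM, and 13 of the 41 cells also had 2 or more bulge genes. In these 13 the genes were Sox9 and Fst, since Lgr5, Cd34 and Wif1 had no UMI in any member. Scd1, the marker named for this population, was low, with 16.5, 81.7 and 86.3 CPM against 86.6, 109 and 95.6 CPM in other cells. The spinous keratin Krt10 had 570, 1209 and 5702 CPM, and 3 cells held 89.8% of its UMIs in replicate 3.

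The 13 members with lipid genes carried a sebum programme and few UMIs of the follicle markers above. Scd1 had 14269.9 and 15724 CPM in replicates 2 and 3, and replicate 1 held 0 such cells of 7 with Krt79, which allows a share of up to 41.0% (exact upper limit). Mgst1, a glutathione transferase high in sebocytes, had 8408 and 5064 CPM, against 273, 180 and 162 CPM in the 41 cells. Plin2, a lipid droplet coat protein, had 996 and 1035 CPM, against 90.9, 98.0 and 86.3 CPM. Both genes thus stood far above the members without lipid genes. Far2, which makes fatty alcohols for wax, had 740 and 1253 CPM, and Elovl3, a fatty acid elongase, had 1181 and 1217 CPM, with no UMI of either gene in any other member. Pparg, the nuclear receptor that directs sebocyte differentiation, had 171 and 109 CPM, and Fasn, fatty acid synthase, had 1081 and 1020 CPM. Awat2 and Mc5r, a wax synthase and a melanocortin receptor of mature sebocytes, were low at 28.5 and 36.4 CPM and at 28.5 and 29.1 CPM. Cst6 had 0 and 87.4 CPM, Krt17 had no UMI, and Gata6 had 1 UMI. Median mitochondrial shares in these cells were 5.54 and 7.52%, within the 10% limit.

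The 77 members with no Krt79 UMI had high levels of the spinous markers Krt10 and Krtdap, low levels of basal keratin and hardly any late cornified envelope transcripts. They had 5 to 133 Defb6 UMIs a cell, with a median of 13. Krt10 had 15303, 17270 and 24046.8 CPM, against 9359, 8821 and 10241 CPM in other cells, and every 1 of the 77 had Krt10 UMIs. Krtdap, a protein of differentiating keratinocytes, had 16555, 18969 and 13245 CPM, against 9609, 9178 and 9291 CPM in other cells. Krt14, the basal keratin, had 9.07, 40.6 and 498 CPM, against 6543, 4433 and 5877 CPM in other cells. Krt10 and Krtdap were thus above, and Krt14 below, the mixture of other cells in every library. Krt1, the partner keratin of Krt10, was patchier. In replicate 1 it was found in 2 of the 8 cells with 3 or more Elovl6 UMIs, with 14 UMIs in all. Lor, the cornified envelope protein of granular cells, had 1070, 5875 and 6372 CPM, below the 8201, 7298 and 8626 CPM of other cells. Lce1c, a late cornified envelope gene, had 3.02, 0 and 2.53 CPM, against 668, 612 and 1236 CPM in other cells. Gata6, Plet1, Pparg, Far2 and Elovl3 had no UMI in the 77 cells. They were also deep, with medians of 26107.5, 22864 and 22671.5 UMIs. Whether a Defb6 count of 5 marks these cells because of their depth was not tested. A threshold of 5 UMIs per 10000 left 1.81% of kept cells as members instead of 2.37%, or 12, 26 and 65 cells. That threshold lay close to the median Defb6 level of the 77 cells, 5.55 per 10000 UMIs, against 60.3 in the 41 cells.

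**Figure D2:**
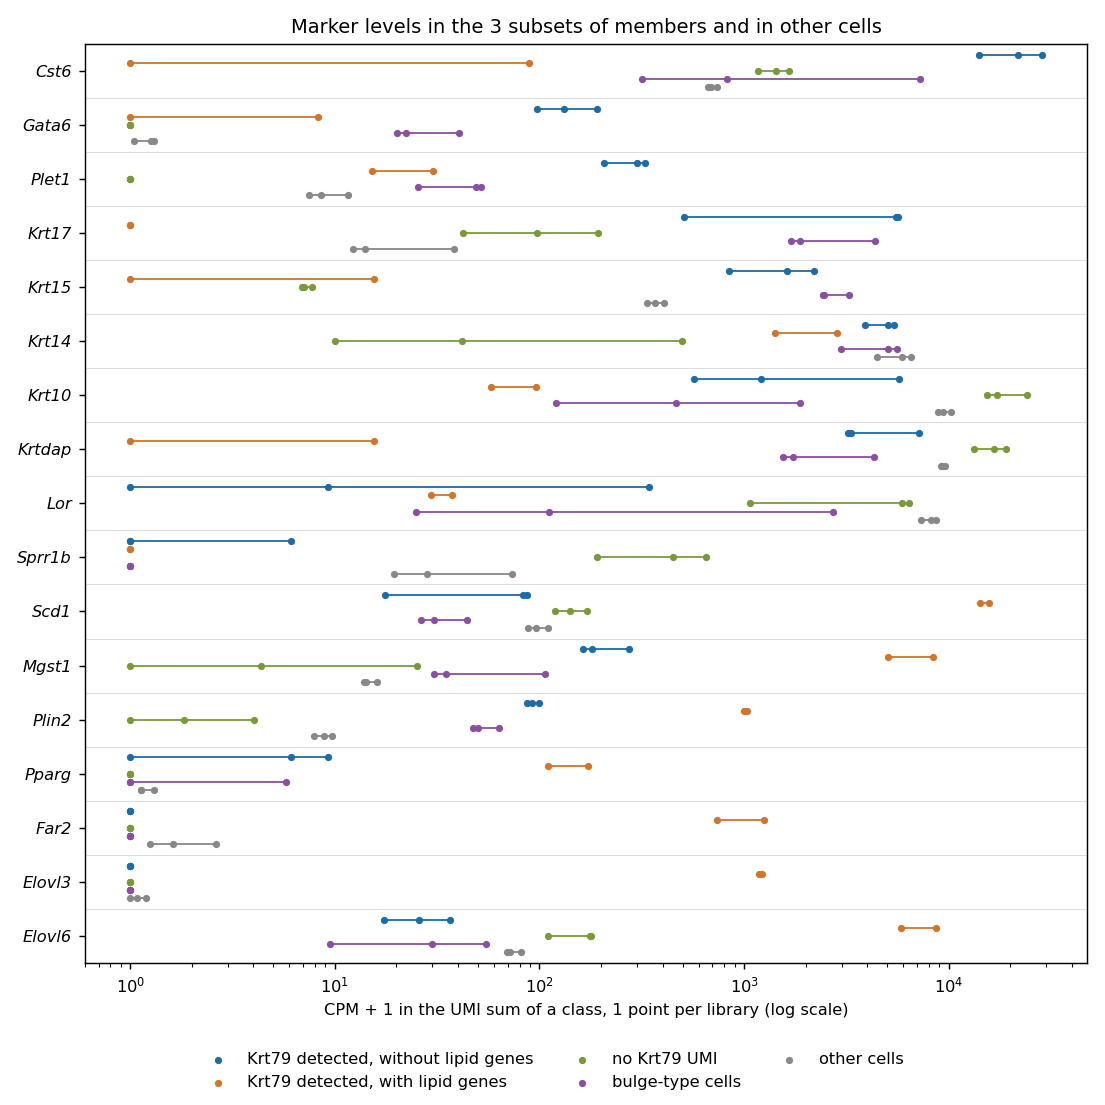
Level of marker genes (vertical) as CPM plus 1 on a log scale (horizontal), 1 point per library with a line over their range, in the members with Krt79 and no lipid genes, with Krt79 and lipid genes, and with no Krt79 UMI, and in bulge-type and other cells. Cst6, Gata6 and Plet1 are highest in the members with Krt79 and no lipid genes, Scd1 and Mgst1 in those with lipid genes, and Krt10 in those with no Krt79 UMI.

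Genes were also ranked by their ratio to the higher of the other 2 subsets, for genes with 50 or more UMIs and found in at least 50% of a subset's cells, a rule set after the values were seen. Among the leading genes of the 41 cells were Krt15, Krt17, S100a6, Cst6, Tcf4, Plet1, Col17a1 and Sostdc1. Tcf4 and Sostdc1 encode a partner of tissue-specific transcription factors and an antagonist of bone morphogenetic proteins. Among those of the 13 cells were Fa2h, Soat1 and Cidea, which defined them, and Elovl3, Far2, Paqr7, Scd1, Cers4, Lpl and Mgll, of which most make, move or cleave lipids. Leading the 77 cells were Hrnr, Sprr1b, Lor, Slurp1, Kctd12, Il1f5, Hal, Klk5 and Asprv1, among them structural proteins and proteases of the cornifying layers. Sprr1b, a small proline-rich envelope protein, had 190, 450 and 651 CPM in the 77 cells, against 27.2, 18.4 and 72.5 CPM in other cells. Krt16, a keratin of stressed epidermis, had 45.3, 102 and 255 CPM, against 9.28, 1.88 and 10.1 CPM, and it came from 26 of the 77 cells.

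The lipid rule, 3 or more UMIs of Fa2h, Soat1, Cidea and Elovl6 together, selected 55 members (8, 11 and 36), or 41.4% ± 1.88 of the members of a library (SD, n = 3). In 42 of the 55 (8, 7 and 27) the sum came from Elovl6 alone, with no UMI of the other 3 genes, and the remaining 13 were the lipid-gene members described above. Fa2h adds a hydroxyl group to the fatty acids of ceramides and waxes, Soat1 esterifies cholesterol, and Cidea promotes fusion of lipid droplets. Elovl6 lengthens palmitate and is not restricted to the gland. Its level in the 77 members with no Krt79 UMI was 109, 176 and 178 CPM, against 71.0, 68.6 and 80.3 CPM in other cells. In the 13 lipid-gene members Elovl6 had 5819 and 8664 CPM. Among the 55 sebum-lipid members, 41 (8, 7 and 26) had no Krt79 UMI, including all 8 of replicate 1. Of 5209 kept cells that were not members, 628 also reached the sum, with shares of 14.7, 9.62 and 13.4% in replicates 1, 2 and 3. By contrast 9 non-members (0, 2 and 7) had 3 or more UMIs of Fa2h, Soat1 and Cidea, and 1 of them had Krt79.

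**Figure D3:**
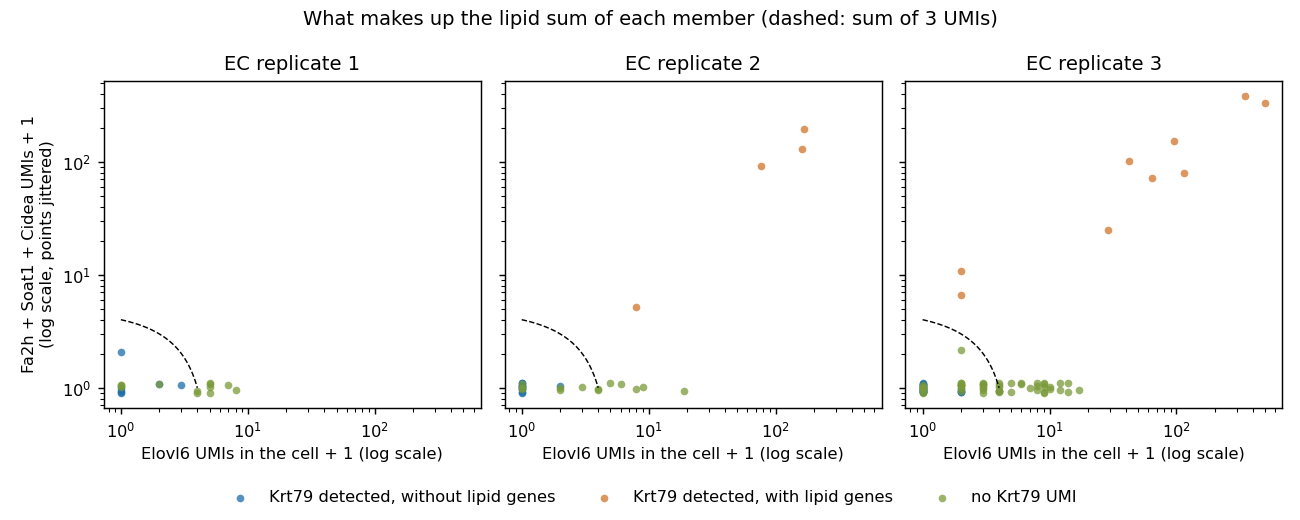
Elovl6 UMIs plus 1 (horizontal, log scale) against the sum of Fa2h, Soat1 and Cidea UMIs plus 1 (vertical, log scale, jittered) in each member, 1 panel per library, coloured by subset. The dashed line is a sum of 3 UMIs, and 42 of the 55 members beyond it lie at 0 UMIs on the vertical axis, while the 13 with lipid genes, all in replicates 2 and 3, stand higher up, most of them at the upper right.

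Just inside the member threshold, 15 cells had 5 or 6 UMIs, and just outside it 30 cells had 3 or 4. Krt79 was found in 3 of the 15 and in 8 of the 30. Their pooled Cst6 levels were 785 CPM inside and 988 CPM outside, and their Krt10 levels 17309 and 20651 CPM. Cells on both sides thus had the Krt10 level of the members with no Krt79 UMI. At the lipid threshold, 18 members had a sum of 3 or 4 and 30 had a sum of 1 or 2, with Krt79 in 1 of the 18 and 8 of the 30. None of the 18 and 2 of the 30 had a UMI of Fa2h, Soat1 or Cidea.

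Compared with bulge-type cells, members had much higher levels of differentiation keratins, cornification proteases and cholesterol enzymes, and lower levels of stem cell and basal genes. Members with no Krt79 UMI supplied 330783 of 451752, 295484 of 426970 and 1187684 of 1521890 member UMIs in replicates 1, 2 and 3. The UMI sums of members thus describe mostly those cells. The fit (edgeR quasi-likelihood test on UMI sums per library and class, library as a block, Benjamini-Hochberg adjusted p under 0.05) called 1152 genes higher and 1085 lower in members, 20.0% and 18.8% of 5760 tested, without the rule genes. Scaling to total UMIs gave 840 higher and 1521 lower and moved the median log2 fold change of all genes to -0.27, against -0.01 with TMM scaling. The gene lists were chosen with earlier results of these data known, so their counts are read only beside those background shares. The count of called genes was 828 of 5879 tested without replicate 3, the library with most members. After thinning to 3000 UMIs it was 663 of 1658 tested. Thinning left out shallower cells, among them 4 members and 19 bulge-type cells.

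All 22 tested cholesterol synthesis genes were higher in members, with a median log2 fold change of 2.27. Sqle, squalene epoxidase, had 64.2, 166 and 202 CPM in members, against 19.1, 29.5 and 4.23 CPM in bulge-type cells (log2 fold change 3.34 ± 0.55 SE, adjusted p = 0.00137). Members lay above bulge-type cells in all libraries for Sqle. Srebf2, the transcription factor that induces this pathway, rose least, by 0.90 ± 0.26 (adjusted p = 0.0196); its groups overlapped and it lost its call without replicate 2.

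Of 24 tested genes of sebaceous lipid synthesis and storage, 17 were higher and 2 lower in members (median 2.07). The list is not limited to genes of the 13 lipid-gene members. Elovl1 and Acsl1 were found in 72 and 74 of the 77 members with no Krt79 UMI, but in 3 and 0 of the 13. Other genes of the list, Scd1 and Mgst1 among them, came mostly from the 13. Scd1 had 128, 2443 and 1538 CPM in members, against 43.0, 29.5 and 25.4 CPM in bulge-type cells (5.32 ± 0.86, adjusted p = 0.00123). The 13 lipid-gene members held 3161 of the 3442 Scd1 UMIs of members, and replicate 1, which had no such cell, rose least. Fabp5, a fatty acid carrier of the epidermis, had 1186, 2733 and 2047 CPM in members, against 4.78, 133 and 42.3 CPM in bulge-type cells (5.40 ± 0.52, adjusted p = 9.91e-05). Mgst1 had 90.8, 1410 and 480 CPM in members, against 105, 29.5 and 33.9 CPM in bulge-type cells (3.50 ± 0.86, adjusted p = 0.0100). The Mgst1 groups overlapped, since replicate 1 was not higher, and the 13 cells held 1286 of its 1374 UMIs in members. Of 11 tested sebocyte regulators 5 were higher and none lower, among them the transcription factor Cebpa (3.40 ± 0.48).

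Among 20 tested interfollicular differentiation genes, 14 were higher and none lower (median 2.98). Krt10 had 11358, 12134 and 19513 CPM in members, against 119, 1881 and 461 CPM in bulge-type cells (4.79 ± 0.71, adjusted p = 8.02e-04). Krt1, its partner keratin, had 890, 323 and 2096 CPM in members, against 14.3, 0 and 8.47 CPM in bulge-type cells (7.29 ± 0.80, adjusted p = 1.75e-04), but 3 sebum-lipid cells held 98.4% of the Krt1 UMIs of their class in replicate 3. The members of every library were above every bulge-type value for both keratins. Flg, filaggrin, had 2.21, 888 and 1511 CPM in members, against 0, 14.7 and 8.47 CPM in bulge-type cells (6.65 ± 1.51, adjusted p = 0.00672) and its groups overlapped, since replicate 1 was low. Of 12 tested genes of the cornified envelope list, which also holds Krt16 and Cst6, 9 were higher and 1 lower. Sprr1b and Krt16 had no UMI in bulge-type cells and were at least 87.4-fold and 31.6-fold higher in members, against a floor of 3 UMIs over the group. Akr1c18, a steroid-reducing enzyme of the aldo-keto reductase family, was at least 34.1-fold higher on the same floor.

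All 6 tested kallikreins, serine proteases that cut the bonds between cornified cells, were higher in members. Klk7 had 301, 1012 and 1046 CPM in members, against 0, 388 and 4.23 CPM in bulge-type cells (3.29 ± 0.93, adjusted p = 0.0187). Klk5 had 117, 300 and 318 CPM in members, against 0, 147 and 4.23 CPM in bulge-type cells (2.66 ± 0.70, adjusted p = 0.0133). Bulge-type cells of replicate 2 overlapped the members for both proteases. Few cells gave these values: Klk7 was found in 3 and Klk5 in 6 of the 109 bulge-type cells. A single cell held up to 58 Klk7 and 14 Klk5 UMIs. Without replicate 3 neither protease passed the test, nor did Mgst1, Srebf2, Flg or Hbegf, an EGF receptor ligand that rose by 4.59 ± 0.82 with all libraries.

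Of 18 tested bulge and outer root sheath genes, 15 were lower and none higher in members (median -3.09), and of 12 tested basal genes 9 were lower. Krt15 had 591, 237 and 114 CPM in members, against 2447, 3266 and 2425 CPM in bulge-type cells (-3.08 ± 0.41, adjusted p = 4.60e-04). Col17a1, collagen XVII of the basal attachment plaques, had 95.2, 49.2 and 48.6 CPM in members, against 1300, 1606 and 1346 CPM in bulge-type cells (-4.26 ± 0.26, adjusted p = 2.07e-05). Ctgf, a secreted matrix protein, had 0, 7.03 and 0 CPM in members, against 292, 575 and 203 CPM in bulge-type cells (-7.54 ± 0.58). The groups were fully apart for these genes. Krt5 (-3.42 ± 0.35) and Krt14 (-1.64 ± 0.13) were lower as well. Wfdc3, Fn1, Col8a2 and Aspn had no UMI in members and were at least 166-fold, 56.7-fold, 55.5-fold and 51.8-fold lower.

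Of 25 tested Wnt and hedgehog genes, 14 were lower and 6 higher in members. Gli1 and Gli2, the transcription factors that carry the hedgehog signal, had 1 and 2 UMIs in all members (at most 2.34 and 4.43 CPM), against 23.9, 44.2 and 46.6 CPM for Gli1 and 52.6, 24.6 and 38.1 CPM for Gli2 in bulge-type cells. Their log2 fold changes were -6.20 ± 0.99 and -5.07 ± 0.84. The ligand Wnt10a was lower by -3.91 ± 0.45 on the log2 scale. Of 28 tested transcription factors of follicle and epidermis, 9 were higher and 13 lower. Grhl3 (5.17 ± 0.64) and Zfp750 (4.58 ± 0.33), which drive terminal differentiation, were among the higher ones, and Lhx2 (-4.93 ± 0.51), a bulge stem cell factor, and Tbx1 (-3.70 ± 0.42) among the lower ones. Gsdma, a gasdermin of the upper skin, rose by 5.37 ± 0.69.

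The upper follicle list did not separate members from bulge-type cells as a block: of 14 tested genes, 6 were higher and 4 lower. Among the 6 were Klk5 and Klk7, which were counted with the kallikreins as well. Lgr6 (-4.02 ± 0.56), Sostdc1 (-2.38 ± 0.42), Lrig1 (-1.63 ± 0.39) and Krt17 (-1.60 ± 0.32) were lower in members, and Lrig1 lost its call without replicate 2. Cst6 had 4810, 5230 and 3733 CPM in members, against 7250, 825 and 317 CPM in bulge-type cells (1.75 ± 0.78, adjusted p = 0.101). A single bulge-type cell held 98.9% of the Cst6 UMIs of that class in replicate 1, and Cst6 was called without replicate 1. When members were limited to the 41 cells with Krt79 and no lipid genes, an alternative added after seeing the data, 104 genes were higher and 131 lower. In that fit the log2 fold changes of Krt17 and Lrig1 were 0.38 and 0.36, and Klk5 turned to -0.69. In the 77 cells with no Krt79 UMI, by the same alternative, 1190 were higher and 1219 lower.

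Compared with the 5100 other cells, a mixture of mostly interfollicular keratinocytes, members had higher levels of upper follicle, lipid and cholesterol genes and lower levels of basal and late cornified envelope genes. The same fit called 264 genes higher and 354 lower in members, 4.58% and 6.15% of 5760 tested. The count changed to 1341 without replicate 1, 279 without replicate 2 and 93 without replicate 3, and it was 943 without cells marked as doublets.

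Of 14 tested genes of the upper follicle list, 10 were higher in members and 1, Lgr6 (-2.41 ± 0.50), was lower. The list is mixed, so its count is not one of upper follicle identity alone. Its kallikreins Klk5 and Klk7 were found in 55 and 43 of the 77 members with no Krt79 UMI. Among the 41 members with Krt79 and no lipid genes, 7 and 14 had them. Gata6 and Plet1 were found in 24 and 21 of the 41 and in 0 of the 77. Krt17 had 1552, 206 and 765 CPM in members, against 37.4, 11.3 and 13.0 CPM in other cells (5.26 ± 0.36, adjusted p = 1.97e-05). Plet1 had 55.3, 49.2 and 41.4 CPM in members, against 10.6, 6.44 and 7.57 CPM in other cells (2.57 ± 0.22, adjusted p = 7.96e-05). All libraries were apart for both genes, although the 41 cells described above supplied nearly all of the UMIs. Cst6 rose by 2.68 ± 0.71 (adjusted p = 0.0414) and lost its call without replicate 2 or without replicate 3. The surface glycoprotein Cd200, the cytoskeletal regulator Dpysl3 and Akr1c18 rose by 6.15 ± 0.36, 6.12 ± 0.33 and 5.85 ± 0.19.

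Transcription factors of the follicle were among the genes higher in members, with 7 of 28 tested higher and 3 lower. Foxc1, known from quiescent bulge stem cells, had 66.4, 30.4 and 23.0 CPM in members, against 0.673, 0.939 and 0.660 CPM in other cells (5.55 ± 0.44, adjusted p = 5.28e-05). In the 41 cells Foxc1 reached 240, 180 and 157 CPM, against 38.2, 63.8 and 76.2 CPM in bulge-type cells. Its level was thus not limited to bulge-type cells. Barx2 (2.12 ± 0.19), Runx1 (2.05 ± 0.52) and Nfatc1 (1.42 ± 0.25) also rose, as did Irx5 (4.34 ± 0.52), while Runx1 and Nfatc1 lost their calls without replicate 3. The Wnt receptor Fzd7 rose by 3.77 ± 0.41 and Wnt10a was lower (-3.65 ± 0.38).

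Genes of the lipid and cholesterol lists stood above other cells, with 9 of 24 and 15 of 22 tested higher and none lower. As above, the lipid list is not limited to genes of the 13 lipid-gene members. Mgst1 had 90.8, 1410 and 480 CPM in members, against 15.1, 12.9 and 13.2 CPM in other cells (5.25 ± 0.77, adjusted p = 0.00258). Plin2 had 26.6, 178 and 105 CPM in members, against 8.68, 7.85 and 6.88 CPM in other cells (3.67 ± 0.43, adjusted p = 7.15e-04). Both genes were higher in all libraries and least so in replicate 1, and the 13 lipid-gene members held 1286 of 1374 Mgst1 UMIs and 212 of 248 Plin2 UMIs. Scd1 (3.38 ± 0.70), Mgst1, Plin2 and Msmo1, a sterol oxidase (1.85 ± 0.28), lost their calls without replicate 3, and Scd1 also without replicate 2. In the 41 cells alone the Scd1 difference was -0.76, and in the 77 cells alone Plin2 was -2.62.

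Of 12 tested basal genes 9 were lower in members and none higher. Krt14 had 1459, 986 and 1147 CPM in members, against 6543, 4433 and 5877 CPM in other cells (-2.22 ± 0.13, adjusted p = 8.15e-06). Krt5, its partner, was lower by -2.86 ± 0.34 on the log2 scale. Of 20 tested differentiation genes, 3 were higher and 4 lower, and the 4 were late cornified envelope genes. Lce1c had 2.21, 2.34 and 2.63 CPM in members, against 668, 612 and 1236 CPM in other cells (-8.59 ± 0.31, adjusted p = 6.78e-07). Lce1b was lower by -8.93 ± 0.47, and Lce1h, with no UMI in members, was at least 158-fold lower. Late cornified envelope genes sit in a cluster of close copies, and reads shared between copies may have been assigned unevenly. Sprr1b (3.11 ± 0.31) and Krt16 (3.92 ± 0.55) were higher, and Krt16 lost its call without replicate 3. Krt77 rose by 1.91 ± 0.50 (adjusted p = 0.0408), but in replicate 1 a single member held all 130 of the Krt77 UMIs found in members with no Krt79 UMI. In replicates 2 and 3, 3 such members held 93.8 and 99.4% of the Krt77 UMIs.

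**Figure D4:**
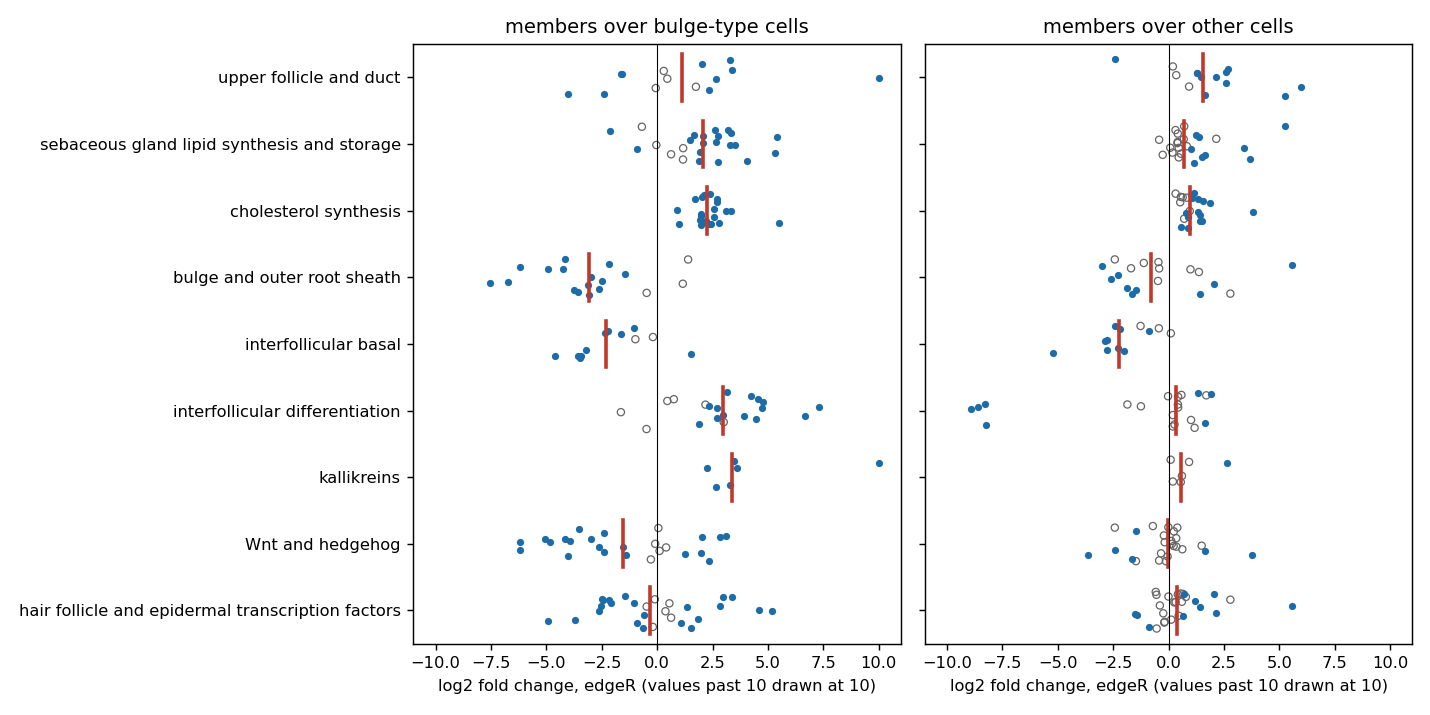
Log2 fold change (horizontal, edgeR, values past 10 drawn at 10) of each tested gene of 9 gene lists (vertical) for members over bulge-type cells (left) and members over other cells (right), with genes called at an adjusted p under 0.05 filled, other tested genes open, and each list's median as a red bar. All 22 cholesterol genes are called to the right of 0 against bulge-type cells, where 15 of 18 bulge genes are called to the left, and in the right panel 4 late cornified envelope genes stand alone at the far left.

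Within the members, sebum-lipid cells had higher levels of a part of the cholesterol enzymes and kallikreins than the other members, and lower levels of Krt15 and Plet1. The fit called 46 genes higher and 37 lower, 1.55% and 1.25% of 2971 tested. The upper follicle list went both ways, with 2 of 12 tested genes higher (the kallikreins Klk5 and Klk7) and 3 lower, among them Plet1 and Cst6. Of 16 tested differentiation genes 3 were higher and none lower. Of 9 tested genes of the cornified envelope list 2 were higher (Sprr1b and the stress keratin Krt16). From that list 1 gene was lower, Cst6, which is counted in the upper follicle list too. The number of calls depended on single libraries, with 614 without replicate 1, 6 without replicate 2 and 236 without replicate 3. It was 25 without the library block and 5 of 458 tested after thinning to 3000 UMIs. Sebum-lipid members were deeper, with medians of 29268, 22310 and 22400.5 UMIs, against 13129, 6313 and 12559.5 UMIs in the other members. With the lipid sum taken per 10000 UMIs, 17.2% of members reached the threshold.

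Krt15 had 0, 4.0 and 8.47 CPM in sebum-lipid members, against 1284, 565 and 240.0 CPM in other members (-6.31 ± 0.68, adjusted p = 0.0153). Plet1 had 0, 4.0 and 4.84 CPM in sebum-lipid members, against 120.2, 113 and 84.8 CPM in other members (-4.60 ± 0.50, adjusted p = 0.0153). Krt15 and Plet1 were thus nearly absent from sebum-lipid members, of which the 41 cells supplied 1. Cst6 was lower but still abundant there, with 1670, 1529 and 1485 CPM in sebum-lipid members, against 8490, 10454 and 6401 CPM in other members (-2.40 ± 0.27, adjusted p = 0.0155). Foxc1 (-3.54 ± 0.46), Tcf4 (-3.35 ± 0.42), Foxq1 (-2.87 ± 0.40) and S100a6 (-3.98 ± 0.66) were also lower. Dpysl3 had 1 UMI in sebum-lipid members and 87 in other members, a ratio of 0.0094 with an exact interval of 0.000236 to 0.0539.

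Of 22 tested cholesterol genes 9 were higher in sebum-lipid members and none lower (median 1.67). Msmo1 had 189, 416 and 473 CPM in sebum-lipid members, against 86.5, 62.1 and 86.2 CPM in other members (2.14 ± 0.34, adjusted p = 0.0309). Its groups were apart in every library, and Nsdhl (2.19 ± 0.41) rose too. Of 20 tested lipid genes 5 were higher, including the elongase Elovl1 (1.50 ± 0.29) and the triglyceride enzyme Dgat2 (1.44 ± 0.28), and Slc27a4, a fatty acid transporter, rose by 2.76 ± 0.42. Scd1 had 152, 4086 and 2746 CPM in sebum-lipid members, against 101, 124 and 105 CPM in other members (3.71 ± 0.87, adjusted p = 0.0670). Its groups were apart without passing the test, and the 13 lipid-gene members held 3161 of the 3326 Scd1 UMIs of sebum-lipid members.

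Of 6 tested kallikreins 3 were higher, among them Klk7 (2.36 ± 0.40) and Klk5 (2.21 ± 0.37). Krt16 had 61.5, 116 and 343 CPM in sebum-lipid members, against 0, 5.65 and 33.1 CPM in other members (3.66 ± 0.43, adjusted p = 0.0177). Krt77 (2.74 ± 0.54) and Sprr1b (2.73 ± 0.54) were higher as well. Among members with no Krt79 UMI, 1 cell held all Krt77 UMIs in replicate 1. There 3 cells held 93.8% of them in replicate 2 and 99.4% in replicate 3. For Krt16, 1 such cell held 28 of 30 UMIs in replicate 2. Without replicate 2 none of the calls named in this comparison held except those of Krt15, Plet1 and Krt16. When the lipid rule was applied without Elovl6, an alternative added after seeing the data, 13 cells in replicates 2 and 3 were selected, and 892 genes were higher and 1377 lower. Klk7, Klk5, Krt16, Krt77, Sprr1b, Elovl1 and Dgat2 then turned negative, with log2 fold changes of -12.19, -10.46, -9.43, -12.17, -10.94, -5.71 and -0.73. Fitted values of genes with few or no UMIs in the 13 cells depend on the prior count and are not bounds. Within members that had Krt79, the same rule gave 430 higher and 458 lower.

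Members also varied by which rule gene brought them in, a split cut by the UMIs of the rule genes themselves and given as a description. Among those with a lipid sum under 3, 64 had at least as many Defb6 as Krt79 UMIs (8, 15 and 41) and 12 had fewer (3, 2 and 7). Of the 64, 36 had no Krt79 UMI, so the split repeats in part the one by Krt79 detection. The fit used classes of 3 or more cells, so replicate 2 gave no Krt79-led profile and the contrast rests on replicates 1 and 3. Of 2303 genes tested, 16 were higher and 5 lower in Defb6-led members, 0.695% and 0.217%, and nothing is read from these calls. Scaling by the size factors of the DESeq2 type gave 3 and 2, scaling to total UMIs 48 and 31, the fit without the library block 1 and 0, and the fit without replicate 2 gave 45 and 24.

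Defb6-led members, of which 36 of 64 had no Krt79 UMI, had higher levels of the suprabasal keratins Krt2 and Krt10 than Krt79-led members. The 41 members with Krt79 and no lipid genes held only 2, 2 and 872 Krt2 UMIs in replicates 1, 2 and 3. Nearly all Krt2 UMIs of Defb6-led members in replicates 1 and 2 thus came from cells with no Krt79 UMI. Krt2, a keratin of the upper spinous and granular layers, had 3813, 13177 and 16374 CPM in Defb6-led members, against 16.9, 0 and 88.4 CPM in Krt79-led members. Krt10 had 8440.0, 11583 and 14255.5 CPM in Defb6-led members, against 388, 390.3 and 1612 CPM in Krt79-led members. Both keratins were apart in replicates 1 and 3. The Krt79-led values of replicate 2 come from 2 cells with 7686 UMIs, too few for the fit. Cst6 had 9536, 10910.3 and 4611 CPM in Defb6-led members, against 5866, 390.3 and 32116 CPM in Krt79-led members, and its groups overlapped. When the contrast was limited to members with Krt79, an alternative added after seeing the data, edgeR called 0 of 884 genes, with 52 at an unadjusted p under 0.05, and DESeq2 was not run on that subset.

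Markers of Langerhans cells, melanocytes and fibroblasts were low in members. Summed levels of 8 Langerhans cell markers, of which 5 had UMIs, were 4.43, 28.1 and 10.5 CPM in members, against 17.2, 579 and 411 CPM in other cells. Ptprc, Cd52 and Csf1r had none. Of 7 melanocyte markers 1 was found, at 4.43, 2.34 and 3.94 CPM in members, against 38.2, 78.6 and 212 CPM in bulge-type cells. Of 6 fibroblast markers 1 was found, at 0, 0 and 0.657 CPM in members, against 148, 29.5 and 72.0 CPM in bulge-type cells, so both lists were higher in bulge-type cells. Endothelial and mural markers, 2 of 6 found, summed to 2.21, 2.34 and 13.1 CPM in members, against 0, 0 and 4.23 CPM in bulge-type cells and 2.15, 3.28 and 4.82 CPM in other cells. Markers of eccrine or other glands, 3 of 5 found, summed to 17.7, 11.7 and 23.0 CPM in members, against 19.1, 14.7 and 72.0 CPM in bulge-type cells and 16.2, 13.8 and 18.7 CPM in other cells. Neither list was lower in members than in other cells in every library. Merkel cell and adipocyte markers had no UMI in members, and T cell markers summed to 4.43, 7.03 and 5.91 CPM. The part of these levels in the differences from bulge-type cells was not tested.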

How the data were processed

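Epidermal cells of mouse ear skin were profiled in 3 libraries with a 10x Genomics 5′ V(D)J kit, with short cDNA added back, per the labels' protocols. Cell Ranger 3.1.0 and build mm10 are named in the submitters' processing notes; which annotation was used, the sources here do not give. Each of the deposited matrices holds unnormalized UMI counts of 31053 genes in cell barcodes, per the file headers.

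The members, gene lists and tests were chosen with earlier results of these data known. The cell filter (500 genes or more, mitochondrial share of 10% or less) passed 5340 of 6078 barcodes. Scrublet (scanpy 1.11.5) marked 33 doublets, which stayed in and were left out as an alternative. Counts were summed per library and class of at least 3 cells and tested with edgeR 4.0.16 (R 4.3.3) by quasi-likelihood, with TMM scaling, the package's low-count filter and a block per library, because all classes come from the same libraries. Genes were called at an adjusted p (Benjamini-Hochberg, whole table) under 0.05, and rule genes were kept out of the tests. Members and bulge-type or other cells entered 1 fit. Fold changes are members over the named class, on the log2 scale, with SE, and the scripts were tested on simulated data.

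Named genes were the 10 with the largest fold in each direction among called genes with 1 direction in all libraries and 20 CPM in the higher class, the markers, and up to 4 called genes of each list; all called transcription factors could be named. Of these, a selection is printed. Genes that describe the subsets, and the alternatives that require or lack Krt79 or drop Elovl6, were chosen after their values were seen. Alternatives were DESeq2 1.42.0, other scalings and filters, thresholds, thinning to 3000 UMIs (shallower cells left out), doublets, each replicate left out and no library block.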

Additional observations from a re-analysis of the deposited data

Results flagged for a closer look

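Among the 738 barcodes left out by the cell filter, 7 had 5 or more UMIs of Krt79 and Defb6, and 5 of the 7 had Krt79. Among kept cells, 131 of 5340 (2.45%) were members. The 7 barcodes entered no comparison. A further look at the same 738 found 4 with 3 or more UMIs of Fa2h, Soat1 and Cidea, the genes of the lipid-gene members. Inside the filter, those members had median mitochondrial shares of 5.54 and 7.52% in replicates 2 and 3, against a limit of 10%. The part of the filter in these counts was not tested.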

How the results depend on the processing

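The 75 named genes (each counted once per comparison) had 1302 values under other settings. Of these, 1132 were counted as unchanged, 131 lost their call, 18 gained one and 21 changed sign. A sign change was counted only where the main value or the other value was called, and otherwise stood as unchanged. The cause of each shift was not tested, beyond the fewer cells, genes or UMIs that a setting leaves. The share of members was 0.962% with Krt79 required, and 1.64 to 2.93% with a replicate left out. The sebum-lipid share was 43.5% at a mitochondrial limit of 5%, 17.2% by depth, 47.9% at 2 UMIs, 23.7% at 5 UMIs and 8.33% without Elovl6, and 40.7 to 42.5% with a replicate left out. Genes called against bulge-type cells numbered 828 to 2524 with a replicate left out, 871 at 5% mitochondrial share, 663 thinned, 396 with Krt79 required and 235 with Krt79 and no lipid genes. Genes called against other cells numbered 93 to 1341 with a replicate left out, 1439 without the low-count filter, 943 without doublets, 169 at 5%, 948 and 409 at member thresholds of 3 and 10 UMIs, 264 by depth, 288 thinned, 349 with Krt79 and no lipid genes and 1362 with no Krt79 UMI. Sebum-lipid calls numbered 6 to 614 with a replicate left out, 689 without the filter, 180 at 5%, 154, 180 and 414 at member thresholds of 3 and 10 UMIs and by depth, 5 thinned, 541, 385 and 509 at lipid thresholds of 2 and 5 UMIs and by depth, 2269 without Elovl6 and 888 when Krt79 was required too. Defb6-led calls, from which nothing is read, numbered 5 with DESeq2-type size factors, 79 with total UMIs, 95 without the filter, 91 without doublets, 241 and 73 at member thresholds of 3 and 10 UMIs, 383 with sebum-lipid members, 0 with Krt79 required and 69 without replicate 2, the sole replicate that could be left out; a 5% limit could not be fitted.

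The settings on Krt79 and Elovl6 were chosen after seeing the data. Settings also differed in how many genes were tested, so counts of calls are not shares. The fit with bulge-type and other cells tested 5760 genes, 1658 when thinned and 3484 with Krt79 and no lipid genes. For sebum-lipid members 2971 genes were tested, 458 when thinned, 5005 without replicate 1 and 4945 without Elovl6. The 13 lipid-gene members and the shallow bulge-type cells limit what low genes can show. Without the replicate block, the calls numbered 2238 against bulge-type cells, 753 against other cells, 25 for sebum-lipid members and 1 for Defb6-led members; the pairing is by library, which holds every class. With Krt79 required, the log2 fold change against bulge-type cells was -1.35 for Klk5, and with no lipid genes as well the values were 0.38 for Krt17, 0.36 for Lrig1, 0.15 for Krt14 and -0.69 for Klk5. Against other cells Krt77 was -0.47 with Krt79 required, Scd1 was -0.76 and Msmo1 -0.049 with no lipid genes as well, and Lrig1 was -0.72 and Plin2 -2.62 with no Krt79 UMI. Without Elovl6, sebum-lipid differences were -9.43 for Krt16, -12.17 for Krt77, -10.94 for Sprr1b, -10.46 for Klk5, -12.19 for Klk7, -0.73 for Dgat2 and -5.71 for Elovl1; with Krt79 required too they were -7.74 for Krt77, -8.53 for Klk7 and -2.59 for Elovl1, and Elovl1 was -0.031 by depth.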
